A study of Mus musculus with 3 samples.

Results

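Ephrins, semaphorins, Slits and netrins are the ligands of 4 guidance systems, and the genes described here encode these ligands together with their Eph, plexin, Robo, Dcc, neogenin and Unc5 receptors. They were taken by gene symbol from the array annotation. Noncontrol probes counted as members where the name began with Epha, Ephb, Efna, Efnb, Sema3 to Sema7, Plxn, Ntn or Unc5, or was Slit1 to Slit3, Robo1 to Robo3, Dcc or Neo1. The rule found 130 probes for 69 gene names, among 41174 probes for 27745 names on the array. One of the 69, Unc50, shares letters with the Unc5 receptors but encodes an unrelated membrane protein. It is included in every count of members below, as an uncalled gene. Cultured primary cells labelled as mouse aortic endothelial cells (MAEC) were compared between FVB/N Pim1 knockout and FVB/N wildtype mice, all labelled female and 12 weeks old. Pim1 is a serine/threonine kinase. The cells grew on gelatine-coated dishes in serum-containing medium, and total RNA was prepared 24 hours after seeding. Each of 3 arrays carried knockout RNA in Cy5 and wild-type RNA in Cy3. The labels called the arrays biological replicates without saying how many animals or cultures stood behind either channel, and no dyes were swapped. Dye and genotype therefore cannot be told apart in any ratio or call below. Every ratio below is knockout over wild type on the log2 scale, ± is the SD over 3 arrays, and adjusted p comes from limma over all tested probes.

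Guidance cues were first described for growing axons and also steer blood vessels. Eph receptors are receptor tyrosine kinases whose ephrin ligands sit on the neighbouring cell, so that both cells receive a signal. Type A ephrins are held by a lipid anchor and type B ephrins cross the membrane. In vessels, ephrin-B2 marks arterial and EphB4 venous endothelium. Semaphorins signal through plexins, and most secreted class 3 members need a neuropilin co-receptor. Slits bind Robo receptors, and netrins bind Dcc, neogenin and the Unc5 family. All of these pathways act on the actin cytoskeleton and on integrin adhesion.

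In the knockout channel 53.8% to 57.2% of probes lay well above background, by the scanner software's call, and in the wild-type channel 58.4% to 62.5%. Over all tested probes the log2 ratios of array 1 correlated with those of arrays 2 and 3 at r = 0.681 and 0.699, and arrays 2 and 3 at r = 0.905. These are correlations across probes, which are not independent replicates. The brighter Pim1 probe fell by 1.04 on the log2 scale (SD 0.105, adjusted p = 0.00296) and was well above background on all 3 arrays in both channels. A second probe, listed on the opposite strand, read −0.45 (adjusted p = 0.0282) and was detected on no knockout array. The labels do not say which part of Pim1 is missing. Xist, detected on no array in the knockout, was lower by at least 168-fold, whereas Y-linked Eif2s3y and Ddx3y were at least 28.1-fold and 12.1-fold higher, although both channels were labelled female. Sex and genotype therefore cannot be told apart. Of 18 endothelial markers, 4 were detected on every knockout array and 6 on every wild-type array, and Pecam1, Cdh5, Tie1, Erg and Sox17 were detected on none. Of the 6 tested, 2 rose (Eng and Egfl7) and 1 fell (Fli1). The summed intensity of all 18, tested or not, was 8423 to 11447 in the knockout and 5054 to 6467 in the wild type. Most of the knockout sum came from Flt1, which was not called, Eng and Egfl7. Of 8 arterial and venous markers tested, 1 rose. Markers of other cell types differed between the channels. Of 12 fibroblast markers tested, 8 rose and 1 fell, with a median log2 ratio of 1.61. Their summed intensity ran from 217346 to 241213 in the knockout and from 165473 to 234981 in the wild type. Most of both sums came from Col1a1, which rose (0.617), and Col1a2, the gene that fell (−0.699), so the sums say little about the other markers. Of 11 mesothelial and epithelial markers tested, 8 fell and none rose. All 13 on the array, tested or not, summed to 10356 to 14379 in the knockout and 72356 to 101072 in the wild type. Most of the wild-type sum came from Msln (40008.6 to 55520.2) and Krt19 (23173.5 to 36770.4). Epcam and Muc16 lay above background on no array. Among 10 mural cell markers (smooth muscle, pericytes) there were 2 rises and 3 falls, of 4 macrophage markers 2 fell, and of 6 neuronal and glial markers 2 fell and 1 rose. In the same order, these 3 lists summed to 54560 to 63590, 2306 to 3028 and 2230 to 2891 in the knockout and to 54582 to 73904, 3949 to 4840 and 2985 to 3394 in the wild type. These sums take in the untested genes on the array too, for 12, 9 and 7 genes. Rgs5, Adgre1, Itgam, Tyrobp and Gfap lay above background on no array. The part of these differences in the results below was not tested, and in bulk RNA fewer cells of a type and less RNA per cell cannot be told apart.

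The guidance genes differed between the genotypes in both directions. Of the 69 genes, 57 had a probe well above background in at least 1 channel on 2 or more arrays and were tested. The 12 others, Dcc, Epha5, Epha6, Epha8, Epha10, Robo2, Ntng1, Ntng2, Plxnc1, Unc5a, Unc5cl and Unc5d, lay above background on no array in either channel. Of the 57 tested, 26 (45.6%) were called at an adjusted p under 0.05, 9 higher (15.8%) and 17 lower (29.8%) in the knockout. With median centring of each array in place of loess, 9 were called higher and 9 lower (31.6%, against 12.4% of all gene names in that setting). Among all 16339 gene names tested, 18.3% were called, 8.02% higher and 10.3% lower, and the share was 20.2% among the 13375 that match a RefSeq symbol or synonym. At least 2-fold changes were called for 15 members (26.3%), 7 higher and 8 lower, against 5.83% of all names. The median absolute log2 ratio was 0.512 over the tested members and 0.193 over all genes, and the signed medians were −0.195 and −0.008. Robo1, Unc5c, Ntn1, Ntn4, Plxnb3, Sema3g and Sema4g passed the detection limit through the wild-type channel only. Ephb1 and Sema6a passed it through the knockout channel only. With detection required in both channels on all arrays, 46 members were tested, with 8 called higher and 14 lower (47.8%, against 18.2% of all genes). Their median log2 ratio was −0.075, against 0.007 over all genes. All 26 called members had the same sign on all 3 arrays, as had 100% of all called genes measured on 3 arrays. For 24 of the 26 (92.3%) the intensities of the knockout and wild-type channels did not overlap, against 89.8% of all called genes, and those of Unc5b and Sema4c overlapped. Among all tested genes, called or not, 59.6% of members and 26.0% of genes did not overlap. The 31 members that were not called had mean log2 ratios from −0.566 to 0.628. Leaving out array 1, 2 or 3 gave 15, 5 and 6 higher members and 23, 4 and 5 lower ones, while 38.4%, 4.35% and 4.14% of all genes were called.

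**Figure D1:**
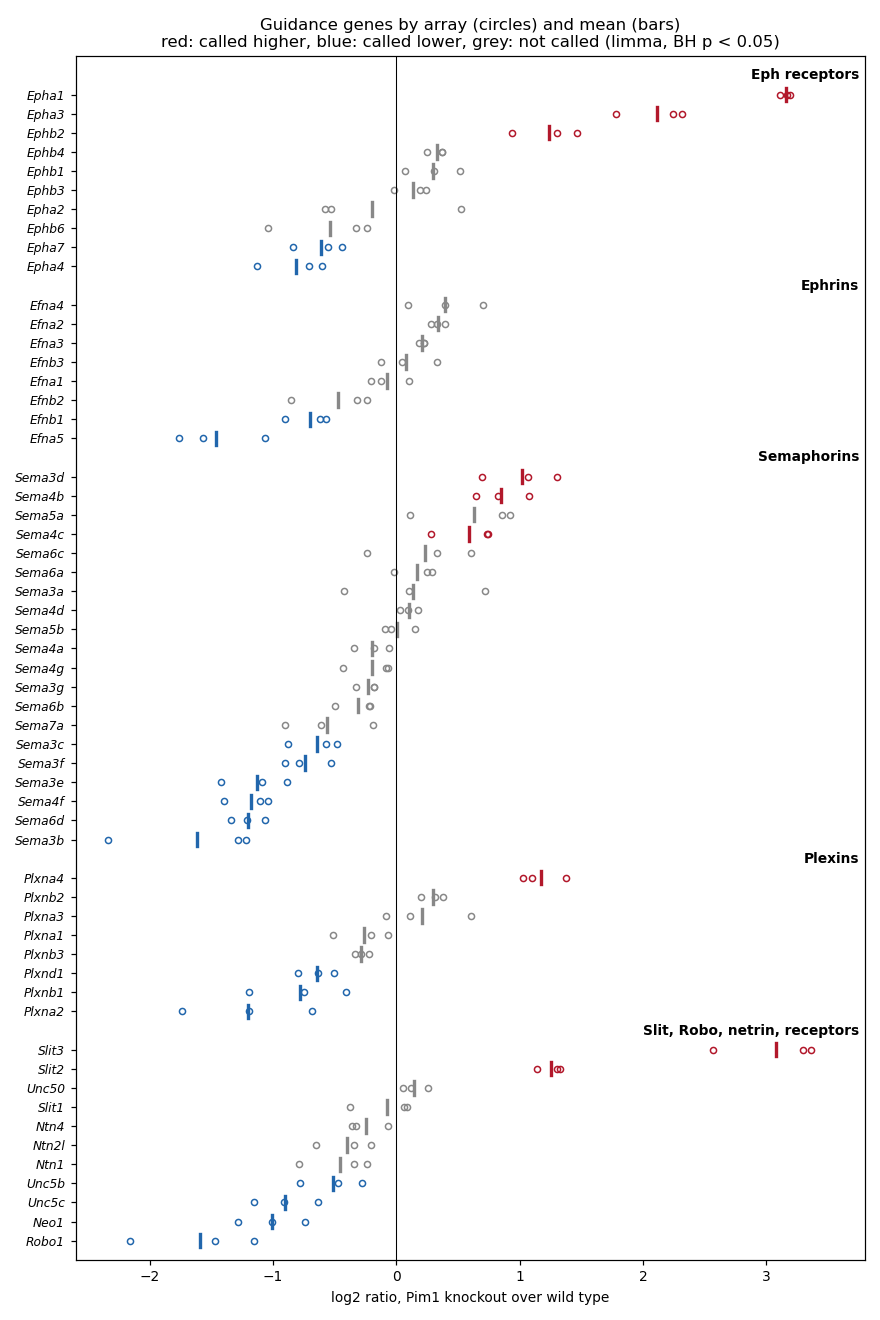
Log2 ratio of knockout over wild type for each of the 57 tested guidance genes at its brightest tested probe, by family, with 1 circle per array and a bar at the mean. Epha1 and Slit3 stand furthest to the right with means of 3.16 and 3.08. Robo1, at −1.59, Unc5c, Ntn1, Ntn4, Plxnb3 and Sema4g were detected on no knockout array, so their places show bounds.

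The Eph receptors Epha1, Epha3 and Ephb2 rose. Epha1, an EphA receptor expressed mainly in epithelia, read 3.11, 3.19 and 3.17 on the 3 arrays (mean 3.16 ± 0.039, 8.91-fold, adjusted p = 0.000189). Its normalised intensity was 3887, 3511 and 3262 in the knockout channel and 450, 386 and 363 in the wild-type channel, so the groups did not overlap. Epha3, an EphA receptor of mesenchymal and neural tissues, read 2.32, 2.24 and 1.78 (2.11 ± 0.29, adjusted p = 0.000902). Its knockout intensities were 401.5, 391.9 and 350.2 against 80.4, 83.0 and 101.8 in the wild type, close to the lower end of the scale. A second Epha3 probe rose by 1.20 on average, and was detected on 1 of the wild-type arrays. Ephb2, an EphB receptor for transmembrane ephrins, read 1.47, 1.30 and 0.93 (1.23 ± 0.272, adjusted p = 0.00429). Its other tested probe, well above background on no array in the wild type, read 0.18 and did not pass (adjusted p = 0.265).

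The EphA receptors Epha4 and Epha7 fell. Epha4, which binds ephrins of both types, read −0.60, −1.13 and −0.71 (mean −0.817 ± 0.281, adjusted p = 0.0158). A second Epha4 probe, detected on all arrays in each channel, read 0.00, −0.62 and −0.30 and was not called (−0.309 ± 0.311, adjusted p = 0.201). Epha7 read −0.44, −0.84 and −0.55 (−0.611 ± 0.204, adjusted p = 0.0232). Ephb6, a receptor without kinase activity, read −1.04, −0.32 and −0.24 and did not pass (−0.535 ± 0.44, adjusted p = 0.102). Among the Eph receptors, 3 of 10 tested were called higher and 2 lower. Epha2, Ephb3 and Ephb4 were singled out after their values were seen. Epha2, an EphA receptor active in endothelium, read 0.52 on array 1 and −0.58 and −0.53 on the others, so its arrays disagreed in sign (mean −0.196 ± 0.621, adjusted p = 0.629). Without array 1 it passed as lower (−0.555, adjusted p = 0.000263), in a fit that called 38.4% of all genes against 18.3% with all 3 arrays. With median centring its mean was 0.038. The venous receptor Ephb4 (0.329 ± 0.071, adjusted p = 0.0682) and Ephb3 (0.138 ± 0.137, adjusted p = 0.419) did not pass. Without array 2 the calls of Ephb2, Epha4 and Epha7 were lost (adjusted p = 0.0526, 0.0992 and 0.158), and without array 3 those of Epha4 and Epha7 (0.104 and 0.143). Both were also lost with median centring. The scanner software's own log ratio gave 4.44 for Epha3, above Epha1 at 3.44, and 2.24 for Ephb2. With an offset of 0 Epha3 read 3.26, and without background subtraction 2.73.

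Epha1 was measured by a single 60-base probe, listed at chr6:42288191-42288250 on the minus strand of mm8, the build of the array files. The files do not say whether it lies in coding sequence, so here and below only its first 30 bases are shown, to identify what was measured.
Epha1 probe: tcaatcagaactctgcctttgaaccaagga

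Of the 8 ephrin genes tested, 2 were called, both lower in the knockout, Efna5 and Efnb1. Efna5, an ephrin-A with roles in axon mapping and cell adhesion, read −1.76, −1.57 and −1.07 (mean −1.47 ± 0.358, 2.76-fold, adjusted p = 0.00419). Its intensities were 4192, 4510 and 3657 in the knockout and 14205, 13380 and 7662 in the wild type, without overlap. A second Efna5 probe, dimmer and assigned to another transcript record, read −0.233 ± 0.032 and did not pass (adjusted p = 0.145). The mean over both probes was −0.849 (adjusted p = 0.00723). Efnb1, a transmembrane ephrin encoded on chromosome X, read −0.90, −0.57 and −0.62 (−0.697 ± 0.18, adjusted p = 0.0143). Its call was lost without array 2 (adjusted p = 0.0891), without array 3 (0.106) and with median centring (0.0707). Efnb2, the arterial ephrin, singled out after its values were seen, read −0.24, −0.85 and −0.32 and did not pass (−0.471 ± 0.332, adjusted p = 0.0876), and a second probe read −0.509 (adjusted p = 0.0574). The other ephrins, Efna1 to Efna4 and Efnb3, had means from −0.074 to 0.394.

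The Efna5 probes lie at chr17:62290290-62290349 (transcript record NM_207654) and chr17:62336320-62336379 (NM_010109), both on the minus strand of mm8. They are set side by side because only the first gave a call.
Efna5, NM_207654: tgtgattctagcatttgtctctaaccaatg
Efna5, NM_010109: tcggaaaaattccagctcttcactcccttt

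**Figure D2:**
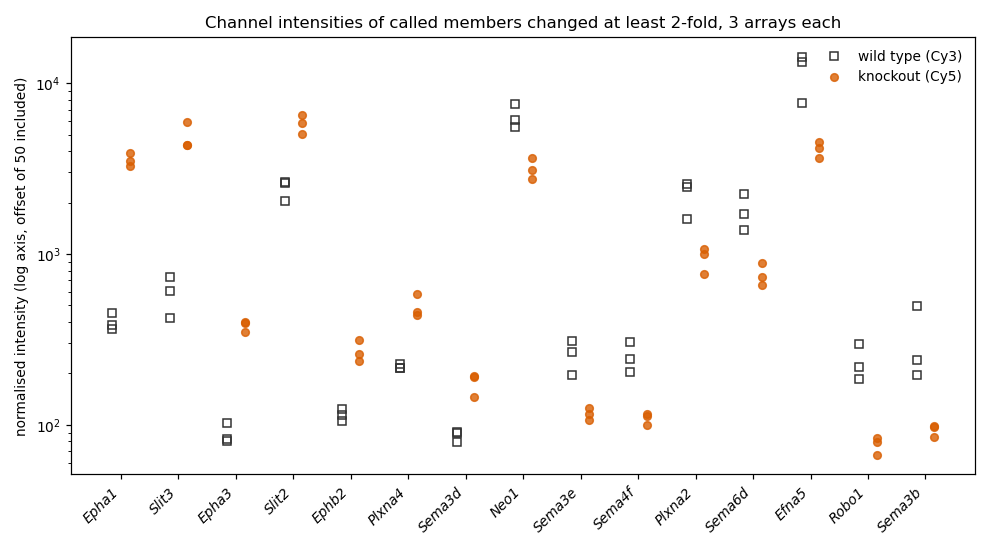
Normalised intensity on a log axis for the 15 called members that changed at least 2-fold, with 3 wild-type (open squares) and 3 knockout values (filled circles) each. No knockout value overlaps a wild-type value in any of the 15, as in 99.8% of all genes called at least 2-fold. Epha3, Sema3d, Robo1, Sema3b, Sema3e, Sema4f and Ephb2 have 1 channel near the lower end of the scale.

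Class 3 semaphorins, the secreted members, were the family with the most falls. Of 7 tested, 4 fell and 1 rose. Sema3b read −2.34, −1.28 and −1.22 (mean −1.61 ± 0.628, adjusted p = 0.0119). It was well above background on 2 of 3 arrays in the knockout, with intensities of 97.5, 98.7 and 84.4 against 493.0, 240.1 and 196.5 in the wild type. Sema3e, the ligand that binds plexin-D1 without a neuropilin, read −0.89, −1.42 and −1.09 (−1.13 ± 0.27, adjusted p = 0.00568), and a second probe was called lower too (−0.642, adjusted p = 0.0237). Sema3f, a neuropilin-2 ligand that repels endothelial cells, read −0.53, −0.79 and −0.90 at its brightest probe (−0.741 ± 0.19, adjusted p = 0.0126) and −1.41 at the other (adjusted p = 0.00254). Sema3c fell at one probe and not at the other, as described below (−0.644 ± 0.212, adjusted p = 0.021). Sema3d rose, with 0.69, 1.30 and 1.07 on the 3 arrays (1.02 ± 0.306, adjusted p = 0.00952). Its wild-type intensities of 78.8 to 90.9 were well above background on 2 of 3 arrays. Sema3a, the founding repellent of the class, was not called, and its arrays disagreed in sign. Without array 2 Sema3e kept its call (−0.986, adjusted p = 0.0474), and Sema3f, Sema3c, Sema3b and Sema3d lost theirs (adjusted p = 0.111, 0.144, 0.0624 and 0.0768). Without array 3 all 5 calls were lost (adjusted p between 0.0589 and 0.115). Median centring also ended the calls of Sema3c and Sema3f. The scanner software's log ratio read −3.21 for Sema3b, 2.99 for Sema3d and −1.91 for Sema3e.

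The probes of Sema3c differed in sign. The one assigned to NM_013657, at chr5:17240084-17240143, read −0.57, −0.88 and −0.48, and the one assigned to AK078589, at chr5:17089485-17089544, read −0.13, 0.12 and 0.66 (mean 0.215 ± 0.402, adjusted p = 0.444). Their mean did not pass (−0.215, adjusted p = 0.316). Both lie on the plus strand of mm8.
Sema3c, NM_013657: acgtaaagtcaagagtgactcataaagagc
Sema3c, AK078589: tgctcacatcattctagacgggtggttggg

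The membrane-bound semaphorins moved both ways. Of 6 class 4 genes, which act mainly through plexin-B receptors, 2 rose and 1 fell. Sema4b read 1.08, 0.82 and 0.64 (mean 0.848 ± 0.218, adjusted p = 0.00998). Sema4c, a ligand of plexin-B2, read 0.28, 0.74 and 0.74 (0.586 ± 0.266, adjusted p = 0.036), and its knockout and wild-type intensities overlapped. A second Sema4c probe read 0.35 and did not pass (adjusted p = 0.0739). Sema4f read −1.04, −1.40 and −1.11 (−1.18 ± 0.188, adjusted p = 0.00298), with intensities of 99.4 to 115.5 in the knockout and 205.0 to 304.1 in the wild type. Among 4 class 6 genes, which bind plexin-A receptors, Sema6d was called, at −1.34, −1.21 and −1.07 (−1.21 ± 0.138, adjusted p = 0.00215). A second Sema6d probe fell too (−0.801, adjusted p = 0.0444), and the third, detected on no knockout array, read −0.125. Sema5a read 0.11, 0.85 and 0.92 and did not pass at its brightest probe (0.628 ± 0.45, adjusted p = 0.0717), although a dimmer probe did (0.531 ± 0.043, adjusted p = 0.0181). Sema7a, a lipid-anchored semaphorin that also binds integrins, read −0.19, −0.61 and −0.90 and did not pass (−0.566 ± 0.357, adjusted p = 0.0619). Without array 2 and without array 3, Sema4b (adjusted p = 0.0881 and 0.0602) and Sema4c (0.215 and 0.218) lost their calls. Sema4c also lost it without the filter on dim probes (adjusted p = 0.0551) and with the scanner software's log ratio (0.0539), which read −2.15 for Sema4f.

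Plexins, the receptors of semaphorins, followed no single direction. Of 8 tested, 1 rose and 3 fell. Plxna4, a class A plexin that partners neuropilins, read 1.03, 1.37 and 1.10 (mean 1.17 ± 0.181, 2.25-fold, adjusted p = 0.00298). All 3 of its probes were called higher, at 0.447 to 1.39. The dimmest, at 0.447, was detected on no wild-type array, so its value is a bound (at least 1.36-fold). Plxna2, another class A plexin and a Sema6 receptor, read −1.74, −1.19 and −0.68 at its brightest probe (−1.21 ± 0.527, adjusted p = 0.0178), and its 3 probes were all called lower, at −1.58 to −0.565. Plxnb1, the main receptor of Sema4d, read −1.20, −0.75 and −0.41 (−0.784 ± 0.396, adjusted p = 0.0317), and its second probe read −0.832. Plxnd1, the endothelial plexin that binds Sema3e, read −0.80, −0.63 and −0.51 (−0.647 ± 0.147, adjusted p = 0.0149). Sema3e and Plxnd1, a ligand and its receptor, were thus both lower in the knockout channel. The neuropilins, co-receptors outside the members, were not called. Nrp1 read 0.40, −0.32 and −0.01 (0.02 ± 0.362, adjusted p = 0.952) and took either sign across the alternatives. Nrp2 read 0.119 ± 0.169 (adjusted p = 0.512). Without array 2 the calls of Plxna2, Plxnb1 and Plxnd1 were lost (adjusted p = 0.118, 0.166 and 0.117), and without array 3 those of Plxnb1 and Plxnd1 (0.0744 and 0.0921). Median centring also ended the calls of Plxnb1 and Plxnd1 (0.0732 and 0.0718), and omitting the filter on dim probes that of Plxnb1 (0.0604).

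Of the 3 Slit ligands tested Slit2 and Slit3 rose, and the Slit receptor Robo1 fell. Slit3, a secreted ligand made by vessel-wall and stromal cells, read 2.56, 3.30 and 3.36 (mean 3.08 ± 0.445, 8.43-fold, adjusted p = 0.000712). Its intensities were 4326, 5939 and 4328 in the knockout and 732, 603 and 420 in the wild type. A second probe upstream in the gene read close to it, at 2.79 ± 0.173 (adjusted p = 0.00032). Slit2 read 1.32, 1.14 and 1.30 (1.25 ± 0.102, 2.38-fold, adjusted p = 0.0016), with 6542, 5804 and 5033 in the knockout and 2612, 2639 and 2046 in the wild type. Its other bright probe read 1.5 (adjusted p = 0.00137). Of 4 more Slit2 probes, each assigned to a cDNA clone, 1 was tested and read 0.319 (adjusted p = 0.0934). Slit1 was not called (−0.077 ± 0.261). Robo1, a receptor of all Slits, read −2.16, −1.47 and −1.15 (adjusted p = 0.00733). It was well above background in the wild type on all arrays and in the knockout on none, so that it was at least 3.01-fold lower. Such bounds come from single channels and, like every ratio here, are open to dye bias. Robo2 lay above background on no array, and the endothelial receptor Robo4 on 1 array in the wild type only. The call of Robo1 was lost without array 2 (adjusted p = 0.0611), and the scanner software's log ratio read −4.82.

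The probes of this ligand and receptor system are shown because 5 of them carry the calls and the last, for a Robo1 clone, lay above background on no array. In mm8 they lie on the plus strand at chr11:35555291-35555350 and chr11:35551480-35551539 (Slit3), chr5:48593511-48593570 and chr5:48592885-48592944 (Slit2), and chr16:72928166-72928225 and chr16:72886232-72886291 (Robo1).
Slit3, BC024984: gttctataaaagagagtaacagtgttacaa
Slit3, NM_011412: aatatgtcttccagtgcacggacggctcct
Slit2, NM_178804, brightest: cctccttcaggacacttgcagaaggtttgc
Slit2, NM_178804, second: gacacatcgagcacaagtgtgtgagtgaga
Robo1, NM_019413: agctggtgacctcacgtacagactttatcg
Robo1, AK040651: cttcctgctgttttaacactctgaacttta

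Netrin receptors fell, and the netrins themselves were not called. Neogenin, Neo1, a receptor for netrins and repulsive guidance molecules, read −0.74, −1.28 and −1.01 (mean −1.01 ± 0.27, 2.01-fold, adjusted p = 0.00787). Its intensities were 3655, 3115 and 2751 in the knockout and 6111, 7570 and 5520 in the wild type, and a second probe was called lower as well (−0.55, adjusted p = 0.0377), while the third tested one was not (−0.262). Unc5c read −1.16, −0.91 and −0.63 (adjusted p = 0.0108) and was well above background in the wild type on all arrays and in the knockout on none, which puts it at least 1.86-fold lower. Unc5b, the Unc5 receptor of endothelial tip cells, read −0.28, −0.78 and −0.47 (−0.512 ± 0.251, adjusted p = 0.0476), and its intensities overlapped between the genotypes. Of the 3 netrins tested, Ntn2l (now named Ntn3) was the brightest and did not pass (−0.401 ± 0.227, adjusted p = 0.0783). Ntn1 and Ntn4 were well above background in the wild type on all arrays and in the knockout on none, and neither passed. Unc50, the unrelated gene caught by the name rule, read 0.141 ± 0.105 (adjusted p = 0.385). Without array 2 and without array 3 the calls of Neo1 (adjusted p = 0.0655 and 0.0796), Unc5c (0.0945 and 0.0512) and Unc5b (0.25 and 0.215) were lost. The scanner software's log ratio read −4.28 for Unc5c and ended the call of Unc5b (adjusted p = 0.0885). The call of Unc5b was also lost with median centring (−0.298, adjusted p = 0.424), with an offset of 0 (0.0635) and without the filter on dim probes (0.0672).

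Several members were measured more than once, which gives a check within the arrays. Of 23 members with 2 or more tested probes, 21 had 1 sign across their probes, among them 14 of the 15 called ones. The exceptions were Sema3c and Sema3a. The probes of 1 gene differed by a median of 0.488 on the log2 scale, and most for Efna5 (1.23), Slit2 (1.18) and Sema6d (1.08). At the probe level 39 of 85 tested member probes were called, against 17.1% of all tested probes.

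**Figure D3:**
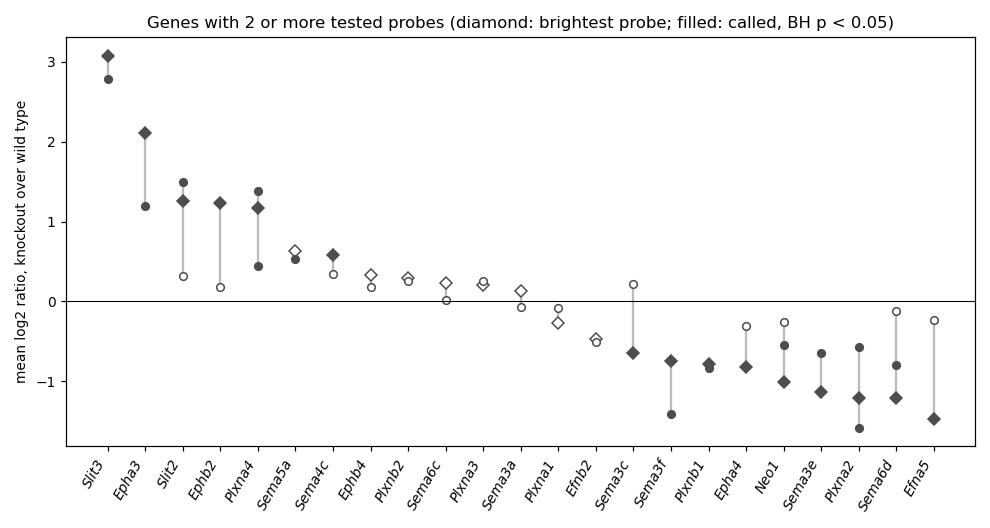
Mean log2 ratio of every tested probe for the 23 guidance genes with 2 or more tested probes, with the brightest probe as a diamond and called probes filled. The probes of Slit3, Plxna4, Plxna2, Plxnb1, Epha3, Sema3e and Sema3f are all called in 1 direction, and those of Sema3c and Sema3a lie on both sides of 0. The dimmest Plxna4 probe was detected on no wild-type array, so its place shows a bound.

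The proteins that work with these receptors were followed in a list with 24 genes of the ephrin side, 28 of the semaphorin side and 27 of the Slit and netrin side on the array, of which 70 were tested. In the knockout 15 were lower (21.4%) and 6 higher (8.57%), against 10.3% lower and 8.02% higher among all genes, and the median log2 ratio was −0.112 against −0.008. Among genes on the ephrin side, Grb10, an adaptor that binds several receptor kinases, read −2.46, −2.69 and −2.75 (mean −2.63 ± 0.157, adjusted p = 0.000325). The mean over its probes was −1.16 (adjusted p = 0.00183), and the scanner software's ratio read −3.56. Ngef, the ephexin exchange factor downstream of EphA receptors, fell by 1.51 on average (SD 0.176, adjusted p = 0.00132). On the ephrin side 5 of 23 fell and 3 rose, and on the semaphorin side 3 of 23 fell and none rose. On the Slit and netrin side 7 of 24 fell and 3 rose. Gpc1, a heparan sulfate proteoglycan that binds Slits, read −2.01, −2.38 and −2.32 (−2.24 ± 0.201, adjusted p = 0.00049). Srgap3, a GTPase-activating protein that binds Robo receptors, read −1.05 ± 0.187 (adjusted p = 0.00421), and Flrt3, a Robo and Unc5 partner, read −1.53 ± 0.824 (adjusted p = 0.0268). Without the filter on dim probes the call of Flrt3 was lost (adjusted p = 0.0632), and its ratio was −2.27 with an offset of 0 and −3.15 with the scanner software's ratio. Rgma, a neogenin ligand, rose with 0.68, 1.31 and 1.53 (1.18 ± 0.442, adjusted p = 0.013), and Dapk1, a kinase bound by Unc5 receptors, rose by 1.05 (SD 0.497, adjusted p = 0.0228). Without array 2 the calls of Flrt3, Rgma and Dapk1 were lost (adjusted p = 0.116, 0.107 and 0.144). Without array 3 those of Srgap3, Flrt3, Rgma and Dapk1 were lost (0.0548, 0.0735, 0.0951 and 0.153). Without array 1, 2 or 3 the list gave 15, 0 and 0 higher genes.

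Promoters are shown for Epha1 and Slit3, which rose over 8-fold, and for Slit2 and its receptor Robo1. They are the 250 bases before the RefSeq start (GRCm38.p6), 5′ to 3′ on the gene's strand, with matches to the motifs named below, on either strand, in capitals.
Epha1, chr6:42373269-42373518, minus strand: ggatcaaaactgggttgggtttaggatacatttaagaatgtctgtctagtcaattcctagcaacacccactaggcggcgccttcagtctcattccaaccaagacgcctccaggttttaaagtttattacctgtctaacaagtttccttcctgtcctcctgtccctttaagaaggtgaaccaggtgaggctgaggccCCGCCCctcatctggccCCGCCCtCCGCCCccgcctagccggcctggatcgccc
Slit3, chr11:35121206-35121455, plus strand: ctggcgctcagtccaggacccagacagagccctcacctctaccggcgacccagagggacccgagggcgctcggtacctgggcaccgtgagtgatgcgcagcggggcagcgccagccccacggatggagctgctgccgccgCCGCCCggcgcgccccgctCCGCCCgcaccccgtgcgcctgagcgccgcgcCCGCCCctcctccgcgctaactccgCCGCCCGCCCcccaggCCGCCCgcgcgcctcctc
Slit2, chr5:47982905-47983154, plus strand: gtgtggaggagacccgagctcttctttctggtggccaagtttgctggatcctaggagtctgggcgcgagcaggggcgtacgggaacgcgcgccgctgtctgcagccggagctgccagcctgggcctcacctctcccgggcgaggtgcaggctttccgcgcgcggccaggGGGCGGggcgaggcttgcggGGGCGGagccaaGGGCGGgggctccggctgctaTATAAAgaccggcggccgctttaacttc
Robo1, chr16:72662899-72663148, plus strand: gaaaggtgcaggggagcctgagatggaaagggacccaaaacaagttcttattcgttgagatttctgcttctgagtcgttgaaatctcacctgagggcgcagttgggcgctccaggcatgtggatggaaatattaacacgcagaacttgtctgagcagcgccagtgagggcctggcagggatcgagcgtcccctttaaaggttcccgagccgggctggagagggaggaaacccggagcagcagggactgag

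The E-box motif searched on both strands of such windows was CACGTG. The AP-1 motif was TGACTCA. The GC box motif was GGGCGG. The TATA box motif was TATAAA, and matches of different motifs could overlap. Of 27018 genes with a promoter entry, 33.0% held GGGCGG, as did 5 of 8 members called higher, 11 of 15 called lower and 20 of 26 not called. The windows of Epha1, Slit2 and Slit3 held it, and that of Robo1 held none of the 4. CACGTG was found in 6.04% of all windows and in that of 1 member, Sema6d, which was called lower. TGACTCA (4.43% of all) was found for Sema4c, and TATAAA (13.0% of all) for Slit2 and Efnb2. GC content was 54.4% for Epha1, 56.0% for Robo1, 69.6% for Slit2 and 78.8% for Slit3. These are matches of letters only.

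Chromosome position was listed because the sex-linked genes differed between the channels. Members on chromosome X were Efnb1, which fell, and Plxna3 and Plxnb3, which were not called. On chromosome 17, which carries Pim1, Ntn2l lay 5.3 Mb from it, Sema6b 26.5 Mb and Efna5 33.1 Mb, and of these Efna5 was called.

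The firmness of the calls differed between members. All 26 called members kept their sign in each of 16 alternative analyses, as far as they could be tested there, and 8 also kept their call in all of these. They were Epha1, Epha3, Slit2, Slit3, Plxna4, Sema4f, Sema6d and Efna5. Their margins differed, with a largest adjusted p from limma of 0.00891 for Epha1, 0.0428 for Sema4f and 0.044 for Plxna4. For Efna5 it was 0.04998, without array 2. Leaving out array 1 ended no call, leaving out array 2 ended 17 and leaving out array 3 ended 15, and 14 of these were the same genes. Without array 1 further members passed, among them Epha2, Efnb2, Ephb4, Sema5a and Sema7a. The share of all genes called moved the same way. It was 38.4% without array 1, against 18.3% with all 3 arrays, so a call kept there says little about firmness. Without array 2 it was 4.35% and without array 3 it was 4.14%.

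**Figure D4:**
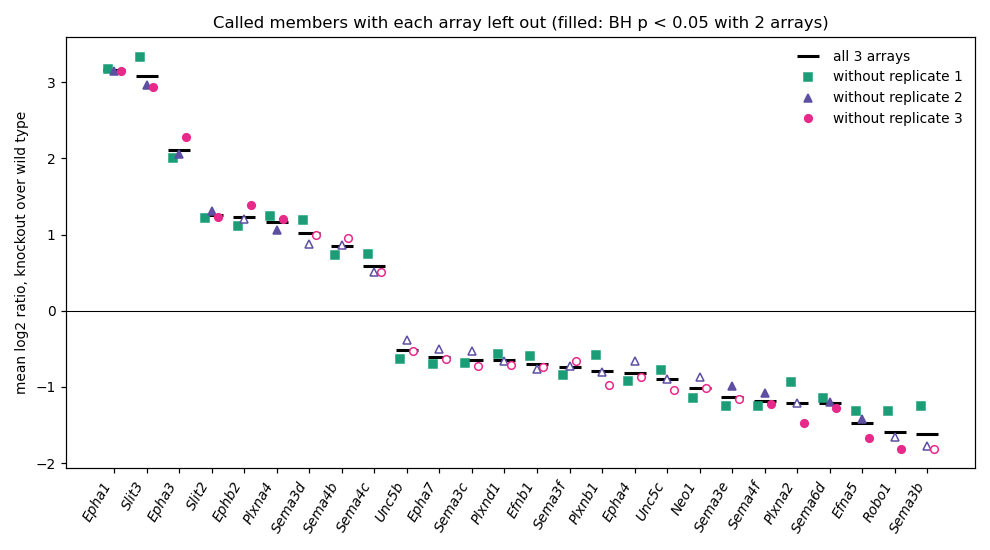
Mean log2 ratio of the 26 called members with all 3 arrays (black bars) and with each array left out (symbols, filled where the adjusted p stays under 0.05). Epha1, Slit3, Epha3, Slit2, Plxna4, Sema4f, Sema6d and Efna5 are filled throughout, and each of the others is open without replicate 2, without replicate 3 or in both cases.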

How the data were processed

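Per the file headers, the scanner tables hold the red and green intensity of each spot (mean and median pixel) with its local background. They came from Agilent Feature Extraction 9.5.3.1, as the submitters' processing notes also state. The authors' deposited values are log10 ratios equal to the software's own (largest difference 0, medians 0 on each array). Here, intensities were corrected with normexp (offset 50, which pulls ratios of dim probes towards 0) and normalised within arrays by loess with limma 3.58.1 in R 4.3.3, with 1639 control spots and outlier-flagged spots at weight 0. Flagged spots (121 to 140 per array) were left out and spots of 1 probe averaged, giving 41174 probes, of which 25076 were tested. No spot was saturated. The mean log2 ratio was tested against 0 (lmFit, eBayes, Benjamini-Hochberg over all tested probes, threshold 0.05). A gene was a name in the array annotation, represented by its brightest tested probe, and 221 probes against their gene's RefSeq strand were left out; none was a member. Channel intensities printed include the offset and are not scaled between arrays. The p-values reflect the spread between 3 arrays and nothing wider. Intensities give no counts, and the number of arrays limits the precision. All arrays shared 1 slide and scan. The steps were tested on artificial intensities with known changes. Alternatives covered background correction, normalisation, pixel summary, filter, flagged spots, gene value, variance model, threshold and leaving out each array.

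Named members were all those called, those past 0.5 on the log2 scale and the brightest of any family without either; of the partner list, the 8 largest called genes, of which 1 is not reported here, and the neuropilins and Robo4. The members and lists were chosen with earlier results of these data known. Probe positions use mm8 and promoter positions GRCm38.p6.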

Additional observations from a re-analysis of the deposited data

How the results depend on the processing

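Higher and lower members numbered 9 and 17. Higher members were 14 with array weights, and 5 to 15 with 1 array left out. Lower members were 9 with median centring and 6 at an adjusted p under 0.01, and 4 to 23 with 1 array left out. Median centring thus gave 50% of called members as higher, against 34.6%, and 56.3% of all called genes against 43.9%. The share of all genes called moved too. It was 31% with array weights, 12.4% with median centring and 6.29% at an adjusted p under 0.01, against 18.3% in the main fit. With 1 array left out it ran from 4.14% to 38.4%. The median log2 ratio of members (−0.195) was −0.274 without background subtraction, −0.271 with an offset of 0, −0.25 with the scanner software's ratio, −0.105 with median centring, −0.041 without the filter and −0.075 where every array had to detect the probe in each channel. It ran from −0.201 to −0.162 with 1 array left out. Higher partner genes (6) were 11 with array weights, 3 with median centring and 0 at an adjusted p under 0.01, and 0 to 15 with 1 array left out. Lower partner genes (15) were 9 with median centring and 5 at an adjusted p under 0.01, and 4 to 20 with 1 array left out. The values of Epha2 and Nrp1, both near 0, changed sign. Epha2 read 0.038 with median centring. Nrp1 read −0.072 with array weights, −0.10 with the mean of its probes and −0.009 without background subtraction, and ran from −0.169 to 0.192 with 1 array left out. The cause of these shifts was not tested. Folds of 8 called members moved over 1.5 times with the scanner software's ratio and 5 with an offset of 0, all away from 0. The main offset shrinks dim probes by construction. The test of the ratios against 0 already pairs knockout and wild-type RNA within each array, so a replicate block could not be added.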
